A study of Mus musculus with 8 samples.

Results

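The core genes of the mammalian circadian clock were read in whole-brain RNA: the activators Clock and Arntl, the repressors Per1, Per2, Per3, Cry1 and Cry2, the nuclear receptors Nr1d1 and Nr1d2, and the output gene Dbp. The members were taken by symbol from the deposited table, which lists 24343 genes with 34535 transcripts, and all 10 were found, with 16 transcripts among them. The brains came from 3 mice of the inbred strain C57BL/6NCrl, 56 to 62 days of age, kept on a cycle of 12 h of light and 12 h of dark with food and water freely available. By the study's methods its mice were killed within the first hours of the dark period, so the data hold a single window of the day and no time course. No mouse carried an engineered allele or received a treatment as far as the labels say, and their sex is not labelled. RNA was extracted from each whole brain and sequenced as 3 libraries for mouse 1, 3 for mouse 2 and 2 for mouse 3. Libraries are named below by mouse and number, so that M3.2 is library 2 of mouse 3. The labels do not say what the library number stands for.

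The clock is a feedback loop of transcription. CLOCK and BMAL1 (the product of Arntl) bind E-box motifs together and switch on the Per and Cry genes, whose proteins return to the nucleus and block that activation until they are degraded. In a coupled loop, REV-ERBα and REV-ERBβ (products of Nr1d1 and Nr1d2) repress Arntl through elements shared with the activating ROR receptors, and Dbp, an E-box target, encodes an activator that works through D-box motifs. The suprachiasmatic nucleus of the hypothalamus is the light-set pacemaker, but most brain cells carry the same loop, and a whole-brain extract averages over all of them. In such a bulk sample, fewer cells of a type and less RNA per cell cannot be told apart.

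The motifs that link the members to one another were read in their promoters, to show which loops these letters touch. RefSeq promoter windows of 300 bases, 250 before and 50 after a transcription start (build GRCm38.p6), matched 9 of the 10 members by symbol, in 13 windows. Per2 was not among them. Both strands were searched for the E-box CACGTG, its variant CACGTT, the D-box TTATGTAA or TTACGTAA, the receptor element AGGTCA and the CRE TGACGTCA. The stretches that hold matches before the start are printed 5′ to 3′ on the strand of the gene, with the matched letters in capitals. AACGTG is the reverse complement of CACGTT, and TGACCT that of AGGTCA. The Clock stretch lies in an intron of the longer Clock transcripts.
Per1, chr11:69098761-69098839, plus strand: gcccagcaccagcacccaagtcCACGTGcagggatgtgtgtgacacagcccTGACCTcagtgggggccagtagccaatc
Per3, chr4:151044794-151044892, minus strand: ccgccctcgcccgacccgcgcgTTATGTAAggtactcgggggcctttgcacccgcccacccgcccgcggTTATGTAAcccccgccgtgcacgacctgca
Cry1, chr10:85185087-85185155, minus strand: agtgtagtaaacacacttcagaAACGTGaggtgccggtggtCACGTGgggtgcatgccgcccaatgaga
Cry2, chr2:92434208-92434257, minus strand: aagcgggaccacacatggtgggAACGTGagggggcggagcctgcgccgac
Nr1d1, chr11:98775378-98775427, minus strand: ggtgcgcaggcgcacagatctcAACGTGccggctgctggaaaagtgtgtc
Nr1d2, chr14:18239156-18239205, minus strand: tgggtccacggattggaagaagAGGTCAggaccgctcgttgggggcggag
Clock, chr5:76303594-76303643, minus strand: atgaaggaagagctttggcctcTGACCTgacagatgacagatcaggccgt

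Per1 and Cry1 held the full E-box, in 2 of the 13 member windows (15.4%), against 7.15% of all 32851 windows. Counted from the start, with -1 as the base just before it, its first base stood at -166 in Per1 and at -60 in Cry1. Cry1, Cry2 and Nr1d1 held the variant, in 3 of the 13 member windows (23.1%), against 4.68% of all windows. Per3 held the D-box at 2 places, -205 and -158, a motif found in 1 of the 13 member windows and in 1.06% of all windows. The receptor element stood before the start of Clock (transcript NM_001305222), Per1 and Nr1d2 and 31 bases past a start of Arntl. It was in 30.8% of the member windows and 16.3% of all windows. Of the 13 member windows 10 lay exactly at the start of a quantified transcript, but not those of Per1 nor the Arntl window with the match. The Per1 windows had starts at 69098949 and 69100152, a few bases before those of its quantified transcripts at 69098956 and 69100158. The Arntl window at the quantified start and the windows of the other Clock transcripts held none of the motifs. No member window held the CRE (1.79% of all windows), and the Dbp window held none of the 5 motifs. These are matches of letters in short windows and say nothing of what binds there. The member windows were rich in CpG, with a median of 21 CpG dinucleotides against 7 over all windows. The E-box and its variant each contain a CpG, so the shares over all windows are not a background matched for CpG.

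Levels are given in FPKM, fragments scaled by transcript length and by library size, so they can be set side by side between genes. Each gene's value is the sum over its transcripts, averaged over the libraries of a mouse and then over mice, with the SD between mice (n = 3). All 10 members were expressed, between 3.67 and 37.1 FPKM, a 10.1-fold range. Their median was 10.03 FPKM, against 8.81 over the 13001 genes that reached a mean of 1 FPKM, and 6 of the 10 lay above that median. Nr1d1 (37.1 ± 5.25), Nr1d2 (36.3 ± 5.68) and Dbp (33.5 ± 3.85) stood highest, and their order was not the same in every mouse. Cry2 followed at 22.7 ± 0.975 FPKM, below Dbp in every library by a ratio of means of 1.47. Per1 (10.1 ± 1.89) and Clock (9.93 ± 0.823) were next and overlapped each other, while every Cry2 value lay above every Per1 value. Arntl (7.34 ± 1.40), Cry1 (6.57 ± 0.338) and Per3 (6.34 ± 0.719) overlapped one another, with Clock above Arntl in all 8 libraries. Per2 was lowest at 3.67 ± 0.558 FPKM, and all its values lay under those of Per3.

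**Figure D1:**
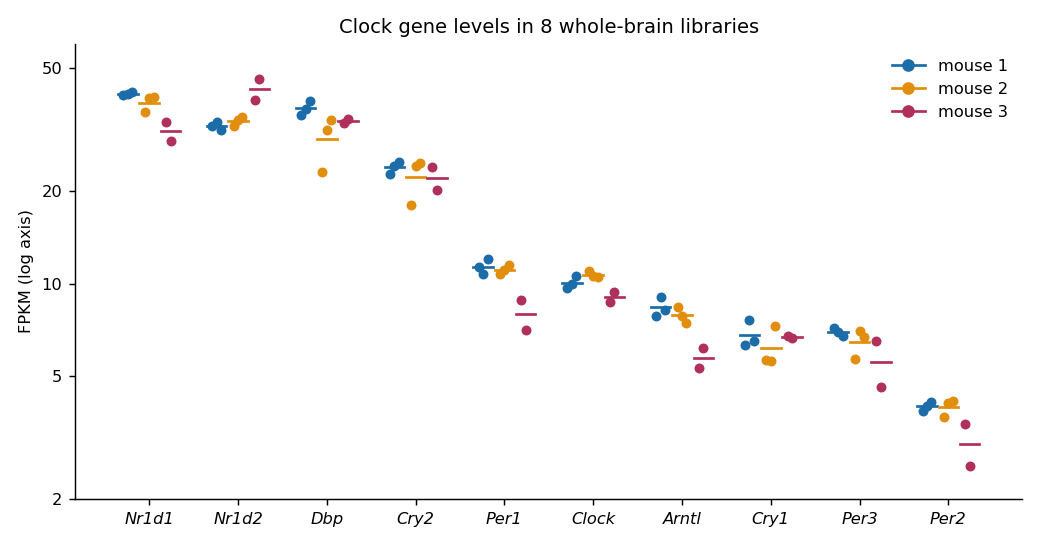
Level of each clock gene in FPKM (log axis) in each of the 8 whole-brain libraries, colored by mouse, with a short line at the mean of each mouse, genes ordered by their mean. Nr1d1, Nr1d2 and Dbp lie highest and Per2 lowest, and the points of mouse 3 stand below the others in Arntl, Per1, Per2, Clock and Nr1d1 and above them in Nr1d2.

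By role, the balance of the loop in these brains can be given as summed levels. The pair of activators summed to 17.3 ± 2.14 FPKM, the 3 Per genes to 20.1 ± 3.14 and the 2 Cry genes to 29.3 ± 1.19 (SD, n = 3 mice). The Nr1d genes summed to 73.4 ± 0.853 FPKM, with 73.7, 72.4 and 74.0 FPKM in mice 1, 2 and 3. The Nr1d sum therefore varied little between mice, while each Nr1d gene varied by much more, as described below. The coefficient of variation between mice (SD over mean) ran from 4.29% for Cry2 to 19.0% for Arntl. Its median over the members was 12.8%, against 12.3% over all 13001 genes.

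The libraries differed in depth and, between mice, in other ways. Between 1.31 and 2.02 Gb of sequence lay on transcripts per library (coverage multiplied by length), of which 1.04 to 1.71 Mb lay on the 10 members. The summed FPKM of a library ran from 295541 to 345572 in mice 1 and 2 but was 384885 and 409889 in the libraries of mouse 3. Short genes were higher in mouse 3 than in the others and long genes lower: its median deviation from the mean of all libraries was 0.31 on the log2(FPKM + 1) scale in the shortest of 5 equal length classes (77 to 1557 nt) and -0.15 in the longest (4706 to 19827 nt). Clock, Per2 and Per3 are in the longest class, Per1, Cry2 and Nr1d2 in the next, Arntl, Cry1 and Nr1d1 in the middle and Dbp next to the shortest. Cell type markers also moved with mouse 3. All 4 astrocyte markers were higher (summed levels of 264 to 286 FPKM in mice 1 and 2 against 415 and 440), as were 2 of 3 oligodendrocyte markers (1848 to 2033 against 3598 and 4485) and 2 of 3 microglial markers. Among 5 neuronal markers 3 were lower and none higher (1731 to 1875 FPKM against 1473 and 1567), and no marker of these lists was at 0 in any library. These are calls of the test described next, and the part of length, scaling and cell makeup in the differences of the clock genes was not tested.

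Because all brains were of a single condition, the only comparison the design allows is between individual mice. limma's moderated F-test over the 3 mice was run on log2(FPKM + 1) for 13001 genes, with p-values adjusted by Benjamini-Hochberg and 0.05 as the threshold. Its p-values measure only the spread between libraries of these mice, which may be technical. By this test 4 of the 10 members differed between the mice, Arntl, Per1, Nr1d1 and Nr1d2, while 25.5% of all genes passed, so that passing was common and nothing particular to the clock can be read from the count. On the TPM scale, where each library is brought to the same total, 7 members passed against 42.3% of all genes. With each library's trend with length removed, 4 passed against 20.3%. With the library number as a block, 2 passed against 23%. Pairs of mice were compared in the same fit. Against mouse 1, mouse 3 had 3 members lower (15% of all genes) and 1 higher (14.7% of all genes). Against mouse 2, it again had 3 lower (13.1% of all genes) and 1 higher (19% of all genes). Between mice 2 and 1, 0 members passed, with 1 of 13001 genes called higher (0.00769%) and none lower (0%). Without adjustment, 1 member (Dbp) and 425 genes reached a p under 0.05 in that pair. The median difference of the members was -0.22 on the log2 scale between mice 3 and 1, against -0.01 over all genes tested, and -0.21 between mice 3 and 2, against 0.04. The members were longer, with a median of 4320.5 nt for a gene's highest transcript against 2844 nt over all genes tested. The part of length in these medians was not tested.

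**Figure D2:**
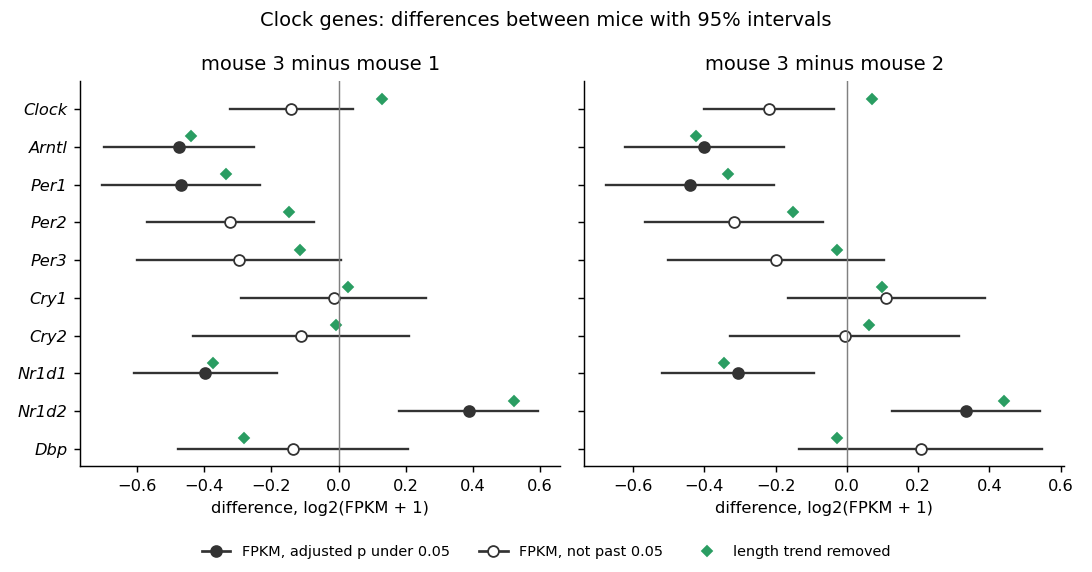
Difference of each clock gene between mouse 3 and mouse 1 (left) and between mouse 3 and mouse 2 (right), as log2(FPKM + 1), with 95% intervals from limma, filled where the adjusted p is under 0.05, and with diamonds for the difference after each library's trend with transcript length was removed. Arntl, Per1 and Nr1d1 lie left of 0 and Nr1d2 right of it in both panels and with either treatment of length, while Clock moves from left to right of 0 once the trend is removed.

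Of the activators, Arntl passed the test and Clock did not. Arntl encodes BMAL1, the partner without which CLOCK cannot drive the loop. Arntl was 7.85, 9.05 and 8.22 FPKM in the libraries of mouse 1, 8.37, 7.86 and 7.45 in those of mouse 2, and 5.32 and 6.18 in those of mouse 3. Both libraries of mouse 3 lay under all others, and mice 1 and 2 overlapped. Its difference was -0.47 between mice 3 and 1 (95% interval -0.70 to -0.25, limma adjusted p = 0.0111) and -0.40 between mice 3 and 2 (-0.62 to -0.18, limma adjusted p = 0.0180). The F-test gave an adjusted p of 0.0214 by limma, which lay between 0.0204 and 0.0767 when single libraries were left out and kept the call in 4 of 8 cases. It was lost without M1.2 (0.0519), M1.3 (0.0544), M3.1 (0.0720) or M3.2 (0.0767).

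Clock encodes the histone acetyltransferase partner of BMAL1 and is known in many tissues as the steadier of the pair. It was 9.69, 9.94 and 10.6 FPKM in mouse 1, 10.95, 10.6 and 10.5 in mouse 2, and 8.72 and 9.37 in mouse 3. The libraries of mouse 3 were again the lowest, but the gaps were small. The difference between mice 3 and 1 was -0.14 (-0.32 to 0.04) and that between mice 3 and 2 was -0.22 (-0.40 to -0.04, limma adjusted p = 0.0673), and the F-test did not pass (limma adjusted p = 0.152). With the length trend removed the difference between mice 3 and 1 turned to 0.13. The Clock to Arntl ratio of FPKM was lowest in mouse 1 (1.21), then mouse 2 (1.35), and highest in mouse 3 (1.58).

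Among the repressors, Per1 passed the test and Per2, Per3, Cry1 and Cry2 did not, and whether the genes differed from each other in this was not tested. Per1, which light and other acute signals induce within the loop, was 11.3, 10.7 and 12.0 FPKM in mouse 1, 10.7, 11.1 and 11.5 in mouse 2, and 8.86 and 7.06 in mouse 3. Both libraries of mouse 3 were under all the rest, by a wider gap in M3.2. The differences were -0.47 between mice 3 and 1 (-0.70 to -0.23, limma adjusted p = 0.0139) and -0.44 between mice 3 and 2 (-0.68 to -0.20, limma adjusted p = 0.0160). The F-test gave a limma adjusted p of 0.0237, and the call was kept in 5 of 8 cases when single libraries were left out, being lost without M1.1 (0.0545), M1.3 (0.0587) or M3.2 (0.150).

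Per2, whose loss weakens behavioral rhythms in mice, was 3.86, 4.02 and 4.12 FPKM in mouse 1, 3.70, 4.08 and 4.17 in mouse 2, and 3.49 and 2.56 in mouse 3. Mice 1 and 2 overlapped, and both libraries of mouse 3 lay under them, with M3.1 close to the lowest library of mouse 2. The differences were -0.32 against each of the others, with intervals of -0.57 to -0.07 in both, and neither passed after adjustment (limma adjusted p = 0.0546 and 0.0551). Its F-test gave a limma adjusted p of 0.0884, and 0.0178 without M3.1. Per3, considered dispensable for the core oscillation, ran from 6.77 to 7.19 FPKM in mouse 1 and from 5.68 to 7.03 in mouse 2, and was 6.50 and 4.62 in mouse 3, so that the mice overlapped (F-test, limma adjusted p = 0.246, and 0.0440 without M3.1). Both libraries of mouse 3 lay below the other 6 in 5 members, Clock, Arntl, Per1, Per2 and Nr1d1 (21.7% of all genes), and above them in 1, Nr1d2 (26.5% of all genes). As ratios of FPKM, Per1 was 2.76 ± 0.0988 times Per2 and Per3 was 1.73 ± 0.105 times Per2 (SD, n = 3 mice). Per1 was 1.60 ± 0.141 times Per3, with 1.63, 1.72 and 1.45 in mice 1, 2 and 3.

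Cry1 and Cry2 encode the cryptochromes, the strongest repressors of CLOCK and BMAL1. Cry1 ran from 6.32 to 7.59 FPKM in mouse 1 and from 5.62 to 7.26 in mouse 2, and was 6.74 and 6.68 in mouse 3. Cry2 ran from 22.7 to 24.8 FPKM in mouse 1 and from 18.1 to 24.7 in mouse 2, and was 23.96 and 20.1 in mouse 3. The mice overlapped in both genes, and neither F-test passed (limma adjusted p = 0.601 for Cry1 and 0.727 for Cry2). Between mice 3 and 1 the difference was -0.01 for Cry1 (-0.29 to 0.26) and -0.11 for Cry2 (-0.43 to 0.21), so changes of these sizes could not be told from 0. Cry2 exceeded Cry1 in every library, by 3.48 ± 0.175 times (SD, n = 3 mice).

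The nuclear receptors of the coupled loop differed between the mice in opposite directions. Nr1d1 was 40.9, 41.2 and 41.8 FPKM in mouse 1, 36.0, 39.9 and 40.3 in mouse 2, and 33.4 and 29.0 in mouse 3. Nr1d2 was 32.4, 33.4 and 31.4 FPKM in mouse 1, 32.4, 34.0 and 34.7 in mouse 2, and 39.5 and 46.1 in mouse 3. In both genes the libraries of mouse 3 stood apart from all others, below them for Nr1d1 and above them for Nr1d2. Nr1d1 differed by -0.40 between mice 3 and 1 (-0.61 to -0.18, limma adjusted p = 0.0167) and by -0.31 between mice 3 and 2 (-0.52 to -0.09, limma adjusted p = 0.0365). Nr1d2 differed by 0.39 between mice 3 and 1 (0.18 to 0.59, limma adjusted p = 0.0167) and by 0.33 between mice 3 and 2 (0.13 to 0.54, limma adjusted p = 0.0252).

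The ratio of Nr1d1 to Nr1d2 gives this pattern within each library, where a common scaling cancels. It ran from 1.11 to 1.33 in the 6 libraries of mice 1 and 2 and was 0.846 and 0.628 in M3.1 and M3.2, so the order of the pair was turned in mouse 3. In the deposited confidence bounds, which describe the estimate within a library, the bounds of mouse 1 and mouse 3 were apart in 6 of 6 pairs of libraries for both genes. Between mice 2 and 3 they were apart in 5 of 6 pairs for Nr1d1 and 6 of 6 for Nr1d2, and between mice 1 and 2 in 3 of 9 and 1 of 9. Their F-tests gave limma adjusted p = 0.0347 for Nr1d1 and 0.0314 for Nr1d2. These calls were held by few libraries: with single libraries left out, Nr1d1 passed in 2 of 8 cases (0.0216 to 0.191) and Nr1d2 in 3 of 8 (0.0157 to 0.175), and neither passed without M3.2 (0.191 and 0.175). On the TPM scale the median difference of all genes was -0.28 between mice 3 and 1 and -0.23 between mice 3 and 2. On that scale Nr1d2 no longer differed by the F-test (limma adjusted p = 0.634), with a difference of 0.10 between mice 3 and 1 and of 0.04 between mice 3 and 2, which are 0.38 and 0.27 relative to the median gene. Quantile normalization also ended the F-test call of Nr1d2 (limma adjusted p = 0.0593). Its differences there were 0.28 between mice 3 and 1 (limma adjusted p = 0.0259) and 0.17 between mice 3 and 2 (limma adjusted p = 0.111). On the TPM scale Nr1d1 differed by -0.69 between mice 3 and 1, or -0.41 relative to the median gene. Its call was lost when each gene was read from its highest transcript only (limma adjusted p = 0.0539). Nr1d1 has a single transcript, so its own values and differences stayed the same there, and only the other genes in the fit changed.

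**Figure D3:**
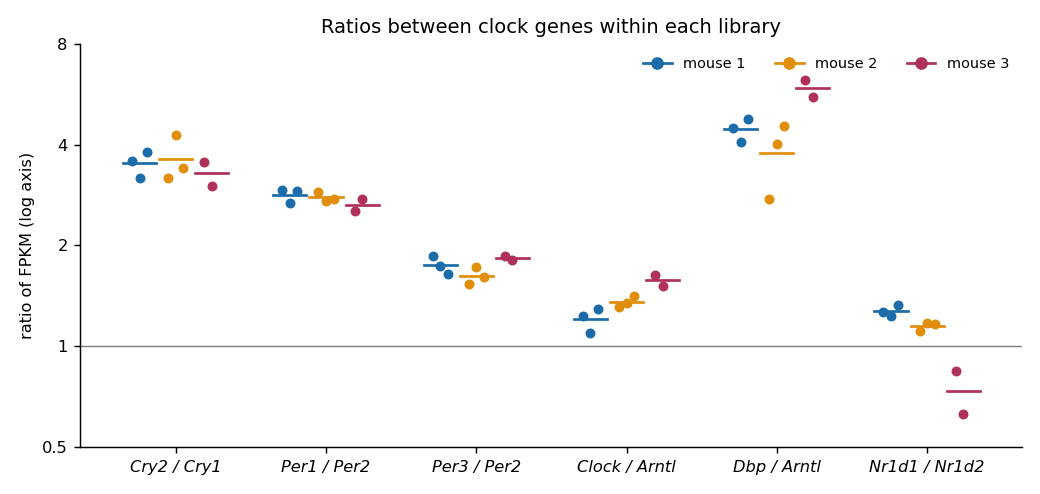
Ratio of FPKM between pairs of clock genes within each library (log axis), colored by mouse, with a short line at the mean of each mouse and a horizontal line at a ratio of 1. Cry2 to Cry1, Per1 to Per2 and Per3 to Per2 overlap between the mice, while Nr1d1 to Nr1d2 is above 1 in the 6 libraries of mice 1 and 2 and below 1 in both of mouse 3.

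Dbp, a direct target of CLOCK and BMAL1 with one of the steepest daily rhythms known, was 35.3, 37.0 and 39.3 FPKM in mouse 1, 23.0, 31.5 and 34.0 in mouse 2, and 33.2 and 34.3 in mouse 3. The spread lay mostly within mouse 2, where M2.1 was the lowest of all libraries. M2.1 also had the lowest summed FPKM, 295541. Over all genes its deviations from the mean of all libraries rose most with transcript length. Spearman's r was 0.502, against 0.182 to 0.352 in the other libraries of mice 1 and 2, and Dbp is short (1678 nt). The part of this in the Dbp value was not tested. The F-test did not pass (limma adjusted p = 0.180). The differences were -0.34 between mice 2 and 1 (-0.65 to -0.04, unadjusted p = 0.0327 and adjusted p = 1.0 by limma), -0.13 between mice 3 and 1 (-0.48 to 0.21) and 0.21 between mice 3 and 2 (-0.14 to 0.55), the last of which was -0.09 on the TPM scale and -0.03 with the length trend removed. Between mice 2 and 1 the difference was -0.34 on the TPM scale and -0.26 with the length trend removed. The ratio of Dbp to Arntl was 4.45, 3.77 and 5.90 in mice 1, 2 and 3. Dbp shares 539 exon bases with the opposite-strand gene Sphk2, which was at 8.50 FPKM, and the strand setting of the authors' counting is not given in the sources used here, so reads of the shared stretch cannot be assigned to either gene. Such sharing was smaller for Cry2, with 295 bases in common with D930015M05Rik (0.659 FPKM). Nr1d1 shares 263 bases with Thra and Arntl 33 with Gm45355 in the GENCODE annotation.

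The genes most like Dbp and Arntl over the 8 libraries, by Pearson's r of log2(FPKM + 1) in a set limited to means of 5 FPKM and above, were not other clock genes. For Dbp they included Tecr (r = 0.994), Glmp (0.988), Gm12070 (0.983) and Chkb (0.982). For Arntl they were Kbtbd7 (0.979), Kcnip4 (0.977), Hdac2 (0.974), Cul4b (0.972) and Ssx2ip (0.970). Of the members compared, with Per2 under that limit, the one most like Dbp was Cry2 (0.773), and the one most like Arntl was Clock (0.792), while Nr1d2 ran against Arntl (-0.799). These coefficients describe libraries that share mice, depth and the length trend, and no test was made of them.

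Transcripts of the members were read by their RefSeq identifiers. Per2 (NM_011066, chr1:91415982-91459328, minus strand), Cry1 (NM_007771, chr10:85131700-85185054, minus strand) and Cry2 (NM_009963, chr2:92403647-92434069, minus strand) had 1 transcript each in the table. So had Nr1d1 (NM_145434, chr11:98767932-98775377, minus strand), Nr1d2 (NM_011584, chr14:18204056-18239106, minus strand) and Dbp (NM_016974, chr7:45705247-45710203, plus strand). Coordinates were taken from the authors' file, for which mm10 is named. Arntl (chr7:113207465-113314126, plus strand) was almost wholly NM_007489, at 99.6% of the gene, with NM_001243048 at 0.309 FPKM in M1.3 and at most 4.11e-05 FPKM elsewhere. Per1 (chr11:69098956-69109957, plus strand) was mostly NM_011065 (95.4%). The other Per1 transcript, NM_001159367, begins further downstream and held 4.61 ± 3.67% (SD, n = 3 mice), from 0.00208% to 17.7% over libraries. The highest share was in M3.1, so that NM_011065 alone was at 7.29 and 7.06 FPKM in the libraries of mouse 3 against 10.7 to 11.5 in the others.

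Clock (chr5:76209868-76304792, minus strand) was divided among 3 transcripts with 3 different starts. NM_001289826 held 57.4 ± 5.89% of the gene, NM_001305222 held 32.0 ± 3.76% and NM_007715 held 10.6 ± 3.33% (SD, n = 3 mice). Between libraries these shares swung widely, from 32.6% to 77.4% for NM_001289826 and from 14.7% to 46.2% for NM_001305222, while the gene as a whole ranged from 8.72 to 10.95 FPKM. The lowest share of NM_001289826 was in M1.1 and the highest in M2.1, and the other libraries of both mice lay between, so that brains did not sort by their shares. Per3 (chr4:151003655-151044665, minus strand) was 84.4% NM_011067 and 11.4% NM_001289878. The remaining Per3 transcript, NM_001289877, held 11.8% in mouse 1 but 0.0789% and 0.625% in mice 2 and 3. That share came from M1.1 and M1.2, at 1.19 and 1.32 FPKM, while M1.3 was at 0.00820. Transcripts of a gene share most of their exons, and the authors' estimation divides the reads between them, so shares are less certain than the sums.

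**Figure D4:**
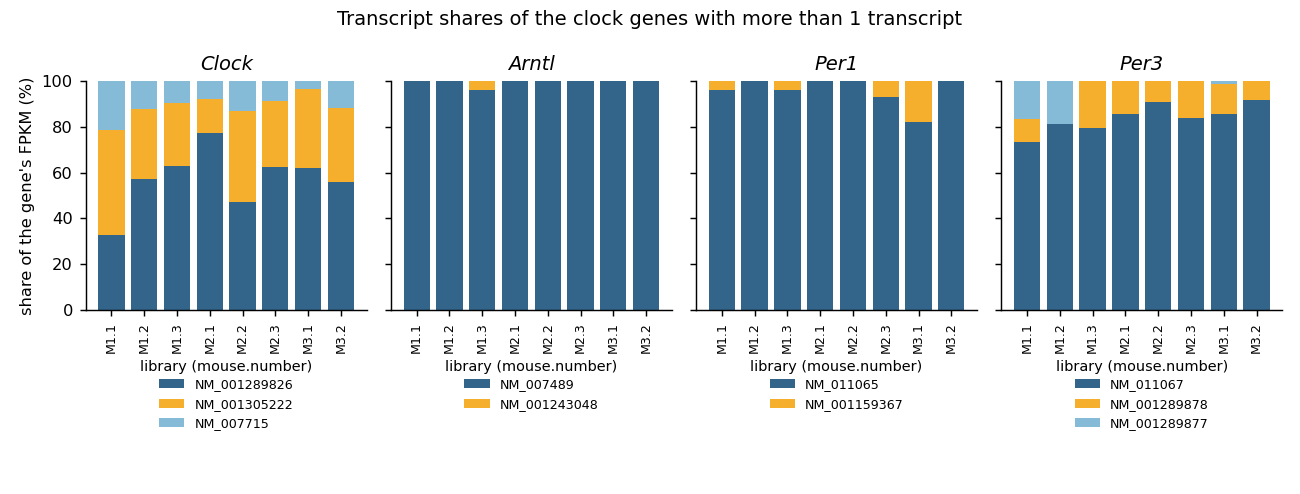
Share of each gene's FPKM (in %) held by each of its RefSeq transcripts, as stacked bars for each of the 8 libraries, named by mouse and number, for the 4 clock genes with more than 1 transcript. Clock is divided among 3 transcripts in shares that change between libraries of the same mouse, while 1 transcript holds at least 96.2% of Arntl and 82.3% of Per1 in every library.

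The rest of the clock pathway was read from a list of 25 genes in 8 groups, of which 24 had at least 1 FPKM and were tested. Timeless, at 0.848 FPKM, was the exception. Of the 24 genes 8 passed the F-test, against the 25.5% of all genes, and those were lower in mouse 3 than in mouse 1. Sizes below are differences between mice 3 and 1 on the log2 scale, and p-values are those of the F-test. The median difference between mice 3 and 1 was -0.21, against -0.01 over all genes tested. The paralogs of the activators, Npas2 (6.44 ± 0.776 FPKM), which can stand in for Clock in the forebrain, and Arntl2 (1.43 ± 0.153 FPKM), did not pass. Neither did Rora at 15.4 and Rorb at 4.70 FPKM, which encode receptors that activate Arntl at the elements where REV-ERB proteins repress it.

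Of the D-box factors, Tef was the most abundant gene of the pathway list at 71.7 FPKM (72.2, 67.2 and 75.6 in mice 1, 2 and 3) and did not pass, while Hlf fell (34.2 ± 3.92 FPKM, -0.29, limma adjusted p = 0.0426). Nfil3, which represses through the same motif, was at 2.46 FPKM. Among the E-box repressors Bhlhe40 fell by 0.37 (limma adjusted p = 0.0469), and Bhlhe41 and Ciart did not pass. Between mice 3 and 2 alone Bhlhe40 did not pass (limma adjusted p = 0.0591). Of the kinases that mark PER and CRY proteins or REV-ERBα, Gsk3b fell by 0.41 (limma adjusted p = 0.0170), while Csnk1d (25.6 FPKM) and Csnk1e (27.0 FPKM) did not pass. Of the ubiquitin ligase genes, Btrc, which targets PER proteins for degradation, fell by 0.33 (limma adjusted p = 0.0298). Fbxw11, the highest of that group at 31.5 FPKM, and Fbxl21, the lowest at 2.93, did not pass.

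The cofactors Sfpq and Nono, RNA-binding partners of the PER complex, fell by 0.71 and 0.34 (limma adjusted p = 0.0077 and 0.0372), with Sfpq at 43.7, 42.9 and 26.5 FPKM in mice 1, 2 and 3. Among rhythmic outputs, Noct, which encodes a phosphatase of nicotinamide dinucleotides and is listed under its older symbol Ccrn4l, fell by 0.65 (14.1, 13.0 and 8.58 FPKM, limma adjusted p = 0.0064) and Usp2, which encodes a deubiquitinase, by 0.47 (limma adjusted p = 0.0386). Cirbp, the highest output at 46.6 FPKM, and Nampt, at 13.4 FPKM, did not pass. With single libraries left out, Gsk3b, Sfpq and Noct each passed in 7 of 8 cases and the other called genes in 1 or 2. Without M3.2, 0 of the 24 genes passed, when 0.969% of all genes did. With the length trend removed, Hlf, Gsk3b and Btrc no longer passed (limma adjusted p = 0.393, 0.0761 and 0.287).

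**Figure D5:**
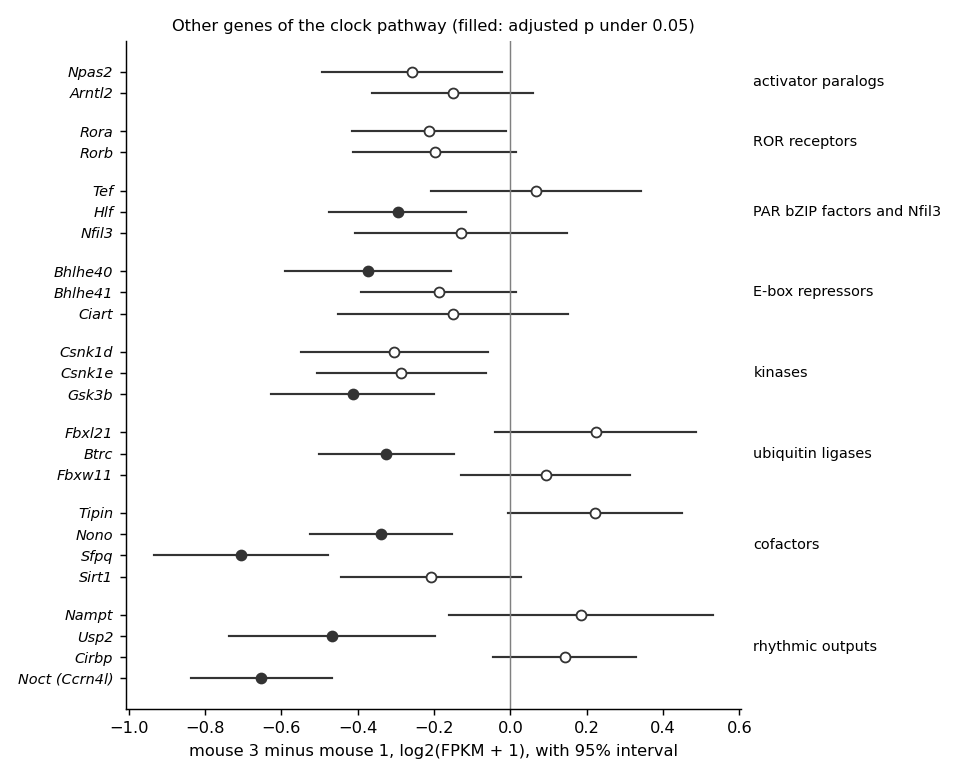
Difference between mouse 3 and mouse 1 of 24 tested genes of the clock pathway that are not members, as log2(FPKM + 1) with 95% intervals from limma, grouped by role and filled where this difference passes at an adjusted p under 0.05. Sfpq and Noct lie farthest left, at -0.71 and -0.65.

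Whether the pacemaker itself contributed was looked for in its marker genes. The suprachiasmatic nucleus is a small part of the brain, and of 7 of its markers only Avp (9.25 ± 1.15 FPKM), Vip (13.1 ± 1.60) and Lhx1 (2.31 ± 0.623) reached 1 FPKM, none of which is limited to that nucleus within the brain. Prokr2 (0.827 FPKM), Prok2 (0.232 FPKM), Nms (0.0529 FPKM) and Six6 (0.0510 FPKM) were near 0, and Nms was listed at 0 in 4 libraries. Lhx1 was lower in mouse 3 (2.71, 2.62 and 1.59 FPKM in mice 1, 2 and 3, F-test limma adjusted p = 0.0198). Avp (9.48, 8.01 and 10.3 FPKM) and Vip (13.2, 11.5 and 14.6 FPKM) were highest in mouse 3 but did not pass (limma adjusted p = 0.529 and 0.202). With the length trend removed, their differences between mice 3 and 1 turned from 0.12 and 0.13 to -0.62 and -0.06. The pineal gland, another rhythmic tissue, was near 0, its 3 markers summing to between 0.0637 and 0.672 FPKM. The pituitary markers summed to between 2.12 and 3.17 FPKM. Blood markers, in contrast, summed to 530 to 659 FPKM in mice 1 and 2 and to 801 and 897 in mouse 3, with 1 of 5 passing the F-test. The highest of them, Hba-a1 (464 FPKM), is short (559 nt). With the length trend removed, its difference between mice 3 and 1 turned from 0.27 to -0.41. Those of Hba-a2 and Alas2 also turned negative. Hbb-bs and Hbb-bt, the marker that passed, stayed positive, with Hbb-bt at 0.48 in place of 1.10. The part of length in these sums was not tested. Choroid plexus markers summed to between 322 and 566 FPKM with 1 of 5 passing, and endothelial markers to 15.2 to 22.2 FPKM in mice 1 and 2 and 27.8 and 30.3 in mouse 3 with 0 of 2 passing.

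Genes induced by neuronal activity were read beside Per1, which responds to the same signals. Of 7 such genes, 5 were tested and 2 passed, against 25.5% of all genes, both lower in mouse 3 than in mouse 1. Egr1 fell by 0.86 between mice 3 and 1 (limma adjusted p = 0.0051) and Junb by 0.47 (limma adjusted p = 0.0453), although Junb did not pass between mice 3 and 2 (limma adjusted p = 0.0693). Fos (2.27 FPKM), Arc (10.2 FPKM) and Nr4a1 (7.10 FPKM) did not pass, with Arc at 0.23 between mice 3 and 1 and 0.35 between mice 3 and 2. The summed level of the list was 49.7 to 58.1 FPKM in mice 1 and 2 and 38.4 and 44.5 in mouse 3. The part of neuronal activity in the difference of Per1 was not tested.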

How the data were processed

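Bulk RNA-seq of whole brain from 3 mice (8 libraries) was analysed. By the study's methods, RNA of high integrity was turned into libraries by a Kapa mRNA HyperPrep kit and read by a NextSeq500 sequencer. The deposited FPKM values were estimated by the authors for each RefSeq transcript and library, with confidence bounds, and the deposited coverage is a signal per base that is not scaled for library size. TopHat, Cufflinks and mm10 are named in the submitters' processing notes; versions, strand setting and read length are not given in the sources used here. No status other than a usable estimate was seen for a member, and 8 values of 2 other genes were marked as failed. The test planned for FPKM was used, since the table holds no counts, and no counting interval was computed.

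FPKM of a gene's transcripts was summed. Differences between mice were tested with limma 3.58.1 (R 4.3.3) on log2(FPKM + 1), with a pseudocount of 1, for genes whose mean reached 1 FPKM, and p-values were adjusted by Benjamini-Hochberg over all genes tested within each comparison. A fold on this scale understates that of low genes. In simulated data for the F-test over the 3 mice (13001 genes), the test recovered 85% of 200 genes that had been moved by 1 (log2) in mouse 3, with 12 false calls, and 0.5% of 200 moved by 0.5. In the data 25.5% of genes passed, a far larger share than was moved there, and the adjustment is stricter when fewer genes differ. These rates therefore do not give the recovery in the data. Alternatives were a pseudocount of 0.1, no minimum or a minimum of 5 FPKM, TPM, quantile normalization, a lowess correction for transcript length within each library (fraction 0.3), the highest transcript only, a prior variance that follows the level, the library number as a block, and each library left out in turn. TPM differences relative to the median of all genes were added after seeing the data. Tables and figures were made with pandas 2.3.3 and matplotlib 3.10.9 in Python 3.11.15.

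The text names the 10 members, the pathway and marker genes that passed and the highest and lowest of their lists, the 5 genes most like Dbp and Arntl, and genes that overlap a member. Some genes that fall under this rule are not reported here and are in none of the counts over the pathway list. The members and lists were chosen with earlier results of these data known.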

Additional observations from a re-analysis of the deposited data

Results flagged for a closer look

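Of 38 measures examined over the 8 libraries, 5 had a library whose gap to the nearest of the others was a larger share of the range than Dixon's 95% critical value, where chance gives about 1 in 20. Per2 was at 2.56 FPKM in M3.2, under 3.49 in the next library. The ratio of Nr1d2 to Per1 was 6.54 in M3.2, above 4.46 in M3.1. The ratio of Dbp to Nfil3 was 7.69 in M2.1, under 12.7 in the next library. The Arntl transcript NM_001243048 was at 0.309 FPKM in M1.3 and at 4.11e-05 FPKM in the next library. M2.1 had 12728 genes at 1 FPKM or more, under 12879 in the next library. M2.1 was also the library with the least sequence on transcripts, 1.31 Gb.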

How the results depend on the processing

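Of the 10 members, 4 differed between the mice by limma's F-test, with 7 on the TPM scale, 2 with the replicate block and 0 to 5 with single libraries left out (0 without M1.3 or M3.2). The calls between pairs of mice numbered 8, with 14 on the TPM scale and 2 to 11 with libraries left out. The 8 were 4 members, each called in both pairs that hold mouse 3, so they are not independent. In the main fit 15% of all genes were lower and 14.7% higher in mouse 3 than in mouse 1. Against mouse 2 these shares were 13.1% and 19%. For the alternatives no share of all genes called between pairs is given, so those pair counts have no background here. Of the other pathway genes 8 passed, with 17 on the TPM scale, 5 with a pseudocount of 0.1, with the length trend removed or with the highest transcript only, 3 with the replicate block and 0 to 9 with libraries left out. Over all genes 3310 passed, with 5493 on the TPM scale, 2167 with the highest transcript only and 126 to 3860 with libraries left out. The median level of the members was 10.03 FPKM, with 29.5 TPM, 8.49 FPKM with the highest transcript only and 9.93 to 10.1 FPKM with libraries left out. Dbp passed on the TPM scale alone (adjusted p = 0.0405), where its difference between mice 3 and 2 turned to -0.09. Of the pairwise differences of the 4 called members under the alternatives that were tested, 112 kept their call, 24 lost it and 0 changed sign. Some alternatives cannot alter a difference: a changed minimum, a changed prior variance, or a library left out of a mouse outside the pair. The highest transcript only also leaves a gene with a single transcript as it was. In those cases the sign was fixed in advance, so the count of signs is not a test of the differences. The TPM scale lowers mouse 3 as a whole. The cause of the other changes was not tested.

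Same-numbered libraries of different mice had correlations of their deviations of 0.00276 to 0.107, against -0.135 to 0.0645 for other numbers. These values were small and the ranges overlapped, and whether the library numbers pair the samples was not tested. With the numbers as a replicate block, Nr1d1 (adjusted p = 0.0834) and Nr1d2 (0.0507) lost their calls, and Arntl (0.0305) and Per1 (0.0444) passed. Changes of 0.5 on the log2 scale were rarely recovered in simulated data in which 200 of 13001 genes had been moved. In the data 25.5% of genes passed, so that rate does not give the recovery here.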

Other observations

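The Clock to Npas2 ratio, which sets the activator against the paralog that replaces it in parts of the forebrain, was 1.56 ± 0.0838 (SD, n = 3 mice), and that of Arntl to Arntl2 was 5.14 ± 0.505, as ratios of FPKM. Nr1d1 was 5.12 ± 0.315 times Arntl and Dbp was 0.915 ± 0.166 times Nr1d1. Dbp was 13.9 ± 1.64 times Nfil3, its repressive counterpart at D-box motifs. The microRNA gene Mir1191, which lies within the Clock locus, was listed at 0 in all libraries.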
